A study of Mus musculus with 15 samples.

Results

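The genes studied here are 9 genes that mark the lipid-associated state of macrophages: Trem2, Tyrobp, Gpnmb, Spp1, Cd9, Fabp4, Fabp5, Lgals3 and Plin2. They were found by their gene symbols, and each matched 1 of the 55335 genes of the expression table. RNA-seq was performed on tumor-associated macrophages (TAMs) from liver tumors of C57BL/6 mice, which were sorted by flow cytometry on the myeloid surface protein CD11b and the macrophage surface protein F4/80. The tumors were orthotopic, grown in the liver from the mouse hepatoma cell line Hepa1-6. There were 5 TAM samples from tumors of control cells, 5 from tumors of cells overexpressing miR-144 and 5 from tumors of cells overexpressing miR-451a, and the overexpression was in the tumor cells and not in the macrophages. The lines were made with lentiviruses, so the model is one of forced expression in a single tumor line. The sample labels state neither the age of the mice nor whether the samples of a group came from separate mice, and the p-values below therefore measure only the spread between these samples, which may be technical. The study's own account of this RNA-seq gives fewer replicates a group than the 5 samples labelled, and how the samples relate to those replicates is not stated.

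Lipid-associated macrophages arise in fat tissue, fatty liver, atherosclerotic plaques and tumors, where they take up dying cells and lipoproteins. TREM2 is a surface receptor for lipids and apoptotic cells, and it signals through the adaptor DAP12, the product of Tyrobp. Downstream of lipid uptake these cells store neutral lipid in droplets, carry fatty acids on binding proteins and secrete osteopontin, the product of Spp1.

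The microRNAs that define the tumor groups are printed because every comparison turns on them. The labels name no arm of miR-144, so both are shown. The mature sequences are from RefSeq (GRCm38.p6, plus strand) and capitals mark the seed, bases 2 to 8. The 3 seeds are all different.
mmu-miR-144-5p (chr11:78073010-78073032): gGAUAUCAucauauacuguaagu
mmu-miR-144-3p (chr11:78073047-78073066): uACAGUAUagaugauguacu
mmu-miR-451a (chr11:78073186-78073207): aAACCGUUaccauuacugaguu

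None of the 9 genes had a match to these seeds in the annotated 3′ UTR of its transcript with the longest coding part. The UTRs of its other transcripts were not searched. The site of miR-144-5p is TGATATC, that of miR-144-3p is ATACTGT and that of miR-451a is AACGGTT. Over 20714 genes with an annotated 3′ UTR, searched in the same way, the sites occurred in 5.41%, 10.8% and 1.59%. A missing match says only that these letters were not in the UTRs searched.

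The promoters of 6 of the 9 genes were listed in RefSeq, and those of 4 are printed because they hold a match to 1 of 4 short motifs linked to lipid handling or to activated macrophages. Gpnmb, Plin2 and Cd9 were among the genes with lower RNA levels in the microRNA groups, and Trem2 was not. Capitals mark the matches. On both strands a search was made for the E-box CACGTG, for CATGTG as the core of the M-box bound by MITF, for the AP-1 motif TGANTCA and for the nuclear receptor half-site AGGTCA, and no matches overlapped. Windows run from before to shortly after the RefSeq start site and are given in GRCm38.p6.
Gpnmb (chr6:49036268-49036567, plus strand): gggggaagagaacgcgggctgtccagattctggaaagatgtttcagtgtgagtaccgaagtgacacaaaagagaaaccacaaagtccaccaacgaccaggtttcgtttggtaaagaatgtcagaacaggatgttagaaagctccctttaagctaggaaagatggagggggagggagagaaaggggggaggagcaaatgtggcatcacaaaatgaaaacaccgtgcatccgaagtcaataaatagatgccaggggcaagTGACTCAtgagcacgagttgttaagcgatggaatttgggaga
Plin2 (chr4:86670010-86670309, minus strand): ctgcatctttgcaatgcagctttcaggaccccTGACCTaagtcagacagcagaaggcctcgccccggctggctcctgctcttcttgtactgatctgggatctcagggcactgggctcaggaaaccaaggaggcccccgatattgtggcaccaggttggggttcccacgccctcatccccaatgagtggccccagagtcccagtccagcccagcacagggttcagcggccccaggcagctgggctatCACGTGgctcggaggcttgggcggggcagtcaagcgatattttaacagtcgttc
Cd9 (chr6:125494711-125495010, minus strand): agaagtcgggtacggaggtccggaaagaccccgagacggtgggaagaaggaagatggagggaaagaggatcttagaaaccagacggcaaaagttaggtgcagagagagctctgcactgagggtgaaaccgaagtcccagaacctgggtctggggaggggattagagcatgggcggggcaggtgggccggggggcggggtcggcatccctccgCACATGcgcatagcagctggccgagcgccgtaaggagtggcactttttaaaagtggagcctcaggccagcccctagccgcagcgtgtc
Trem2 (chr17:48346151-48346450, plus strand): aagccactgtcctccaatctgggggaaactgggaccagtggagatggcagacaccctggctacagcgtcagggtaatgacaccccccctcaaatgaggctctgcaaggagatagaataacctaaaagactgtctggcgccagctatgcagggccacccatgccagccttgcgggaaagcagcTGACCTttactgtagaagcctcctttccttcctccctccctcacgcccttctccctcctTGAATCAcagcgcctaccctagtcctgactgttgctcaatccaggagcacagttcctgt

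Counted from the start site, the Gpnmb promoter held an AP-1 match at position 8. The Plin2 promoter held an E-box at position -4 and a half-site at position -218. Cd9 had the M-box core at position -38, and Trem2 had an AP-1 match at position -9 and a half-site at position -68. Among 32851 mouse promoters of the same length, 7.15% held CACGTG, 14.2% held CATGTG, 7.81% held TGANTCA and 16.3% held AGGTCA. These matches are descriptions of sequence and not evidence of binding.

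The identity of the sorted cells was checked with marker genes. The 9 macrophage markers summed to 8814 to 9628 FPKM (fragments scaled to the length of the transcript and to the mapped fragments of the library) in control TAMs, 14894 to 16825 in miR-144 TAMs and 14568 to 15819 in miR-451a TAMs, and 7 of them were higher and 2 lower in each microRNA group. Of the hepatocyte markers, Alb, Ttr, Apoa1, Apoc3 and Serpina1a were listed at 0 in all 15 samples, as were Cd3e and Cd3g of T cells. Collagen RNA of stellate cells or fibroblasts was present, with Col1a1 at 62.3 to 79.5 FPKM in control, 83.2 to 128 in miR-144 and 112 to 139 in miR-451a TAMs. The Kupffer cell gene Clec4f was listed at 0, while the list of 6 Kupffer cell markers summed to 23.3 to 32.1, 41.9 to 69.6 and 40.8 to 62.5 FPKM in the 3 groups. Cd5l made up most of that difference, with means of 3.40, 29.8 and 27.1 FPKM. Folr2, the most abundant of them by the mean over all 15 samples, had means of 23.7, 23.3 and 21.4 FPKM. Monocytes also carry CD11b, and the 5 monocyte markers summed to 3.65 to 5.33 FPKM in control, 9.66 to 14.8 in miR-144 and 9.67 to 13.6 in miR-451a TAMs, with both tested markers, Plac8 and Vcan, called higher in each. Ccr2, a defining monocyte marker, had means of 0.161, 1.05 and 1.39 FPKM, and the part of monocytes in the levels of the 9 genes was not tested. In sorted bulk samples, fewer cells of a type and less RNA per cell cannot be told apart. Depth as read from the steps between low values was about 23.7 to 27.6 M fragments in control, 17.9 to 27.2 M in miR-144 and 15.5 to 30.3 M in miR-451a TAMs. No samples of a group held identical values, and the median absolute difference between them over genes lay between 0.0702 and 0.1102 on the log2 scale.

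All 9 genes were among the more abundant transcripts of the TAMs. By mean FPKM over the 15 samples, Gpnmb ranked 16 of the 55335 genes, Lgals3 25, Tyrobp 33, Spp1 41, Fabp5 88, Plin2 138, Cd9 190, Trem2 325 and Fabp4 717. The 9 genes together held 2.80% to 2.90% of all FPKM in control TAMs, 1.63% to 1.88% in miR-144 TAMs and 1.57% to 1.79% in miR-451a TAMs, with no overlap between control and either microRNA group.

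In TAMs from miR-144 tumors, 6 of the 9 genes were lower than in control TAMs and 3 were higher by limma on log2(FPKM + 1) at a Benjamini-Hochberg adjusted p under 0.05. In TAMs from miR-451a tumors, the same 6 were lower and the same 3 higher. Fabp4, Cd9, Gpnmb, Lgals3, Plin2 and Fabp5 were 2.09-fold to 6.003-fold higher in control TAMs, whereas Trem2, Tyrobp and Spp1 were between 1.09-fold and 1.51-fold higher in the microRNA groups. Both comparisons use the same 5 control samples. Of the 11419 genes whose mean reached 1 FPKM, 20.1% were called lower and 47.1% higher in miR-144 TAMs, and 20.3% lower and 48.1% higher in miR-451a TAMs. Groups did not overlap for 7 of the 9 genes in each comparison, against 53.9% and 55.2% of all tested genes. A fall of at least 1 on the log2 scale was seen for 3.19% and 3.39% of tested genes and for 6 of the 9.

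The level of the whole table shifted between groups, since the median tested gene was 0.13 (log2) higher in miR-144 and 0.14 higher in miR-451a TAMs than in control. With every sample centred on its median, 30.7% of genes were lower and 30.8% higher in miR-144 TAMs, and 31.8% lower and 31.3% higher in miR-451a TAMs. The summed FPKM and the share of mitochondrial transcripts moved with the groups too, at 300620 to 307552 FPKM and 7.29% to 7.89% in control, 285154 to 295105 FPKM and 6.19% to 7.12% in miR-144 and 283362 to 290739 FPKM and 6.18% to 7.11% in miR-451a TAMs, with no overlap between control and either microRNA group. Their part in the results was not tested. With median centring the 6 lower genes kept their calls in both comparisons, and none of Trem2, Tyrobp and Spp1 was called.

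**Figure D1:**
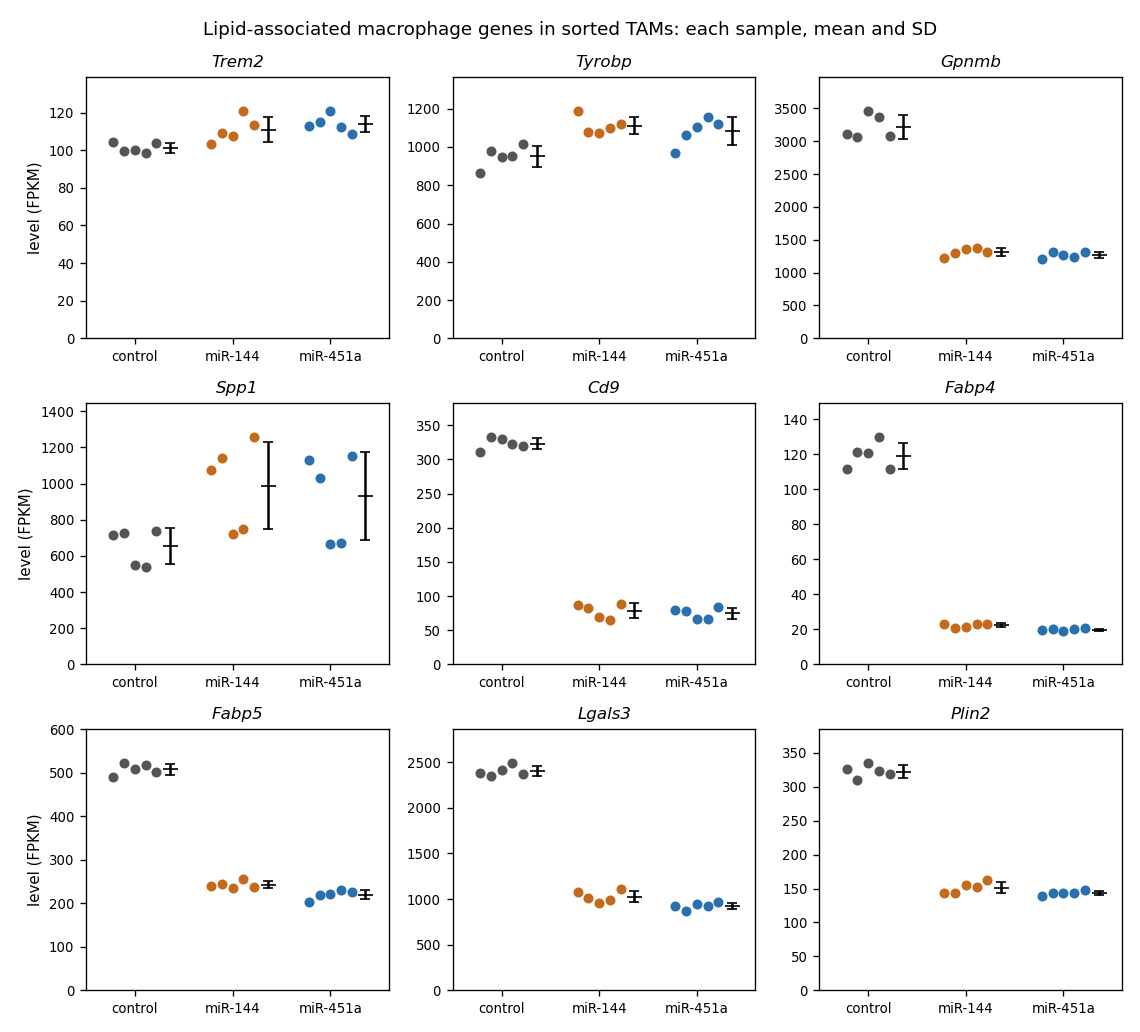
Levels of the 9 genes in FPKM on the vertical axis, which starts at 0, in control, miR-144 and miR-451a TAMs. Points are the 5 samples of a group in the order of their labels, and the bar beside them is the mean with its SD. Control samples sit apart from and above both microRNA groups for Gpnmb, Cd9, Fabp4, Fabp5, Lgals3 and Plin2, while for Trem2, Tyrobp and Spp1 the groups lie close together or overlap.

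Trem2 (chr17:48346401-48354147, plus strand, coordinates of genes in GRCm38 and GENCODE M21) encodes the lipid receptor. In control TAMs it stood at 104, 99.4, 99.97, 98.6 and 104 FPKM in samples 1 to 5. The miR-144 samples held 103, 109, 108, 121 and 113 FPKM, and the miR-451a samples held 113, 115, 121, 112 and 109 FPKM. All miR-451a samples were above all control samples, whereas miR-144 and control samples overlapped. Group means were 101 ± 2.63, 111 ± 6.59 and 114 ± 4.37 FPKM (SD, n = 5). The log2 difference from control was 0.13 in miR-144 TAMs (95% interval 0.043 to 0.21, limma adjusted p = 0.0105) and 0.17 in miR-451a TAMs (0.083 to 0.25, limma adjusted p = 0.00158). Relative to the median of all genes these differences were -0.0014 and 0.032, and with median centring the miR-144 difference turned to -0.0060 and neither call held.

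Tyrobp (chr7:30413760-30417585, plus strand) encodes DAP12, the signaling adaptor of TREM2 and of several other myeloid receptors. Control samples held 866, 981, 946, 951 and 1015 FPKM. The values were 1187, 1081, 1073, 1100.1 and 1120.5 FPKM in miR-144 samples and 970.01, 1063, 1105, 1157 and 1121 FPKM in miR-451a samples. Sample 1 was the lowest of both the control and the miR-451a groups and the highest of the miR-144 group. The miR-144 samples were all above control, and the miR-451a samples overlapped with control. Means of 952 ± 55.1, 1112 ± 45.6 and 1083 ± 71.7 FPKM gave log2 differences from control of 0.23 (0.11 to 0.34, limma adjusted p = 0.001298) and 0.19 (0.075 to 0.30, limma adjusted p = 0.00506). Both calls were lost with median centring, at log2 differences of 0.091 and 0.041. As a description with no test, the ratio of Trem2 to Tyrobp FPKM was 0.107 ± 0.00792 in control, 0.0998 ± 0.00812 in miR-144 and 0.106 ± 0.00832 in miR-451a TAMs.

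The list for TREM2 and DAP12 signaling held genes that carry or restrain the signal, and among others the adaptor gene Hcst and the sheddases Adam10 and Adam17. Its genes were more often higher than lower in the microRNA groups, as were tested genes at large. Of 20 such genes, 19 passed the filter on low values, and 12 of these rose and 2 fell in miR-144 TAMs, with a median log2 difference of 0.46 against 0.13 for all tested genes. In miR-451a TAMs 13 rose and 1 fell, with a median of 0.40 against 0.14. Of all tested genes 47.1% were higher and 20.1% lower in miR-144 TAMs and 48.1% and 20.3% in miR-451a TAMs. With 19 genes, nothing is read from these counts about the pathway. The phosphatidylinositol 3-kinase adaptor Pik3ap1 rose from 41.6 ± 1.57 FPKM in control to 105 ± 3.02 in miR-144 TAMs and 99.9 ± 3.47 in miR-451a TAMs (limma adjusted p = 5.55e-14 and 9.15e-14). Phospholipase Plcg2 rose from 26.01 ± 1.52 to 54.7 ± 4.86 and 55.6 ± 5.699 FPKM. Members that restrain such signals rose as well: the inhibitory adaptor Dok3 from 15.7 ± 1.44 to 39.5 ± 3.61 and 40.1 ± 3.35 FPKM, and the phosphatase Ptpn6 (SHP-1) from 53.1 ± 2.61 to 124 ± 11.6 and 123 ± 8.71 FPKM. The kinase Syk, which docks on DAP12, stood at 57.7 ± 1.31, 60.7 ± 4.61 and 59.8 ± 1.96 FPKM and passed the test in neither comparison, at log2 differences of 0.069 and 0.050 that turned to -0.065 and -0.094 with median centring and passed after rescaling to TPM (limma adjusted p = 0.0160 and 0.0206).

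Hcst, which encodes the related adaptor DAP10, was low at 5.101 ± 0.907, 5.91 ± 0.675 and 6.58 ± 1.06 FPKM. It passed the test in miR-451a TAMs (log2 0.31, limma adjusted p = 0.0176, which became 0.196 with median centring) and was at 0.19 in miR-144 TAMs (limma adjusted p = 0.1396, which became 0.0418 after rescaling to TPM), and its difference between the microRNA groups was not called by limma. The sheddases that cut TREM2 from the surface were Adam10 at 31.9 ± 1.23, 26.9 ± 3.72 and 29.2 ± 1.34 FPKM and Adam17 at 41.3 ± 3.31, 44.4 ± 7.29 and 42.6 ± 5.53 FPKM. Adam10 fell in miR-144 TAMs (log2 -0.25, limma adjusted p = 0.0106, which became 0.0531 after rescaling to TPM), and the other 3 contrasts of these enzymes with control did not pass, although Adam10 also fell in miR-451a TAMs with median centring (log2 -0.27, limma adjusted p = 0.00647). Trem1 and Trem3, the neighbors of Trem2 in the family, were at most 0.0643 and 0.134 FPKM in any sample.

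Of 12 other TREM family genes and DAP12 partners, 8 passed the filter, with 5 higher and 2 lower in miR-144 and 6 higher and 2 lower in miR-451a TAMs (medians 0.56 and 0.64 against 0.13 and 0.14 for all tested genes). With 8 genes these counts are not far from the background of 47.1% and 48.1% higher and 20.1% and 20.3% lower, and nothing is read from them about the family. The DAP12-coupled receptors Sirpb1a, Sirpb1b and Sirpb1c rose from 0.604, 0.9102 and 1.02 FPKM to 3.45, 4.99 and 5.33 FPKM in miR-144 TAMs and 3.11, 4.93 and 5.14 FPKM in miR-451a TAMs. These 3 genes are close copies, and how the deposited values divide reads between them is not stated. Cd300ld, a CD300 family receptor, fell from 64.1 ± 3.45 FPKM to 25.8 ± 1.92 and 26.9 ± 2.496 FPKM.

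Gpnmb (chr6:49036546-49070929, plus strand) encodes a lysosomal and surface glycoprotein that rises in lipid-loaded macrophages. It was the most abundant of the 9 genes. The control samples held 3117, 3071, 3456, 3369 and 3077 FPKM. In the microRNA groups it was far less abundant, at 1226, 1305, 1352, 1371 and 1314 FPKM for miR-144 and 1201, 1309.6, 1275, 1232 and 1314 FPKM for miR-451a. The lowest control sample was thus above the highest sample of either microRNA group. Means fell from 3218 ± 181 FPKM to 1314 ± 55.99 and 1266 ± 49.1 FPKM, which is 2.45-fold and 2.54-fold higher in control. The log2 differences were -1.29 (-1.39 to -1.20, limma adjusted p = 1.63e-12) and -1.34 (-1.44 to -1.25, limma adjusted p = 9.58e-13). Set against Trem2 within each sample, the Gpnmb to Trem2 ratio was 31.8 ± 2.36 in control, 11.9 ± 0.459 in miR-144 and 11.1 ± 0.618 in miR-451a TAMs, values chosen after they were seen and given with no test.

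Spp1 (chr5:104435118-104441050, plus strand) encodes osteopontin, a secreted ligand of integrins and CD44. In control samples 1 to 5 it stood at 716, 725, 548, 541 and 736 FPKM. The miR-144 samples held 1078, 1145, 721, 747 and 1257 FPKM and the miR-451a samples 1128, 1033, 667, 669 and 1153 FPKM. Samples 3 and 4 were the 2 lowest in every group, and 3 of those 4 microRNA samples lay within the range of control. Means were 653 ± 99.5, 989 ± 242 and 929.9 ± 244 FPKM, with coefficients of variation of 15.2%, 24.5% and 26.2%, the widest spread of the 9 genes in each group. The log2 difference from control was 0.58 in miR-144 TAMs (0.15 to 0.997, limma adjusted p = 0.0182, two-sided exact permutation p = 0.0238). In miR-451a TAMs it was 0.48 (0.058 to 0.90, limma adjusted p = 0.0425, two-sided exact permutation p = 0.0794), so that the exact test did not pass.

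The Spp1 calls did not hold in every fit that left out 1 sample. Without miR-144 sample 5 the miR-144 difference was 0.48 and no longer called (limma adjusted p = 0.0508). The miR-451a call ended without control sample 3 (0.0949), control sample 4 (0.0975) or miR-451a sample 1 (0.104), 2 (0.0907) or 5 (0.106), each a limma adjusted p. Median centring ended both calls (log2 0.44 and 0.34, limma adjusted p = 0.0627 and 0.148). The cholangiocyte markers, a cell type that makes osteopontin in liver, summed to 0.740 to 1.11, 1.58 to 2.52 and 1.30 to 2.12 FPKM over 4 genes in control, miR-144 and miR-451a TAMs, with Epcam listed at 0, and none of the 4 reached a mean of 1 FPKM. Cholangiocytes carry neither CD11b nor F4/80, the proteins used for the sort, and their part in the Spp1 level was not tested. Up to 31.1% of the 50-base stretches of a Spp1 transcript also occur in Gm42793, an unclassified annotated transcript overlapping Spp1 that reached at most 5.41 FPKM.

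Osteopontin receptors moved in both directions. Of 14 receptor and family genes 8 passed the filter, and 4 of these rose and 3 fell in each comparison (medians 0.24 and 0.24). Among all tested genes 47.1% and 48.1% were higher and 20.1% and 20.3% lower, so the list had a similar share of higher and a larger share of lower genes, from which nothing is read with 8 genes. Cd44 fell from 50.8 ± 1.45 FPKM to 22.3 ± 1.45 and 22.5 ± 1.49 FPKM, and the integrin subunit Itgb3 fell from 18.6 ± 0.966 to 2.48 ± 0.172 and 2.45 ± 0.329 FPKM (limma adjusted p = 4.22e-14 and 3.67e-14). Itgav, the partner subunit of Itgb3, rose from 5.61 ± 0.263 to 9.06 ± 0.857 and 10.6 ± 3.39 FPKM. Other alpha subunits that bind osteopontin rose too, with Itga4 going from 4.71 ± 0.251 to 19.6 ± 2.54 and 20.8 ± 1.47 FPKM and Itga9 from 0.545 ± 0.128 to 3.77 ± 1.05 and 3.91 ± 1.103 FPKM.

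Cd9 (chr6:125460266-125494791, minus strand) encodes a tetraspanin, a membrane protein that organizes integrins and other receptors at the cell surface. The control samples held 311, 332, 329, 323 and 319.5 FPKM. Levels were 86.8, 82.6, 69.7, 64.7 and 88.9 FPKM in miR-144 samples and 79.6, 77.8, 65.8, 65.9 and 83.2 FPKM in miR-451a samples. No control sample overlapped with either microRNA group, and samples 3 and 4 were the lowest of both microRNA groups but not of the control group. Means were 323 ± 8.45, 78.5 ± 10.7 and 74.5 ± 8.09 FPKM, so Cd9 was 4.11-fold and 4.34-fold higher in control. The log2 differences were -2.04 (-2.22 to -1.85, limma adjusted p = 2.08e-11) and -2.11 (-2.30 to -1.92, limma adjusted p = 1.30e-11). Annotated antisense transcripts overlap Cd9, and the strand used in counting is not stated, so reads from the opposite strand cannot be told apart. Up to 13.4% of the 50-base stretches of a Cd9 transcript, and 1.19% of those of its longest one, also occur in 93 other genes. Together these genes summed to at most 2916 FPKM in any sample, which makes the level of Cd9 less certain. Gm16754, which shares most with Cd9, was at most 0.987 FPKM.

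Platelets carry much CD9. The platelet gene Pf4 stood at 9.31 to 16.9 FPKM in control, 4.004 to 10.9 in miR-144 and 3.48 to 12.8 in miR-451a TAMs, and the 4 platelet markers summed to 9.89 to 17.6, 5.62 to 12.5 and 4.59 to 14.4 FPKM. Pf4 was called lower in both microRNA groups and was the only platelet marker with a mean of at least 1 FPKM. The other 3 markers had higher means in the microRNA groups, with Ppbp at 0.408, 0.763 and 0.988 FPKM, Itga2b at 0.248, 0.3900 and 0.505 FPKM and Gp9 at 0.0909, 0.261 and 0.1796 FPKM in the 3 groups. Free platelets lack F4/80, one of the proteins used for the sort, and the part of platelet RNA in the Cd9 level was not tested.

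Named tetraspanins other than Cd9 moved in both directions. Of 14 tetraspanins and CD9 partners 12 passed the filter, with 5 higher and 4 lower in miR-144 and 5 higher and 5 lower in miR-451a TAMs. The list's medians of 0.14 and 0.13 were near those of all tested genes, 0.13 and 0.14, of which 47.1% and 48.1% were called higher and 20.1% and 20.3% lower. Against that background the list held a similar share of higher genes and a larger share of lower ones, and with 12 genes nothing is read from these counts about the family. Cd81, a close relative of Cd9, rose from 12.7 ± 0.818 FPKM to 24.4 ± 1.9002 and 25.8 ± 2.301 FPKM (limma adjusted p = 1.00e-08 and 3.63e-09), and Cd82 rose from 12.7 ± 0.638 to 20.4 ± 1.06 and 18.8 ± 2.34 FPKM. Cd63, a tetraspanin of late endosomes, fell from 285 ± 15.5 to 166 ± 10.9 and 160.04 ± 7.03 FPKM, and Cd151 fell from 32.3 ± 3.02 to 17.9 ± 2.11 and 17.7 ± 2.5004 FPKM. The ratio of Cd9 to Cd81 FPKM was 25.6 ± 2.05 in control, 3.22 ± 0.344 in miR-144 and 2.93 ± 0.549 in miR-451a TAMs, a pair chosen after the values were seen and given with no test.

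Fabp4 (chr3:10204088-10208576, minus strand) encodes the fatty acid carrier of adipocytes and macrophages and had the largest log2 difference of the 9 genes in both comparisons with control. Control samples held 111, 121, 121, 129.7 and 112 FPKM. For miR-144 the samples had 22.999, 20.8, 21.5, 23.1 and 22.96 FPKM, and for miR-451a they had 19.6, 20.05, 18.9, 20.01 and 20.6 FPKM. None of the 3 groups overlapped with another. Means were 119 ± 7.59, 22.3 ± 1.05 and 19.8 ± 0.638 FPKM, and Fabp4 was 5.34-fold and 6.003-fold higher in control. The log2 differences were -2.37 (-2.46 to -2.27, limma adjusted p = 2.05e-15) and -2.53 (-2.62 to -2.43, limma adjusted p = 8.29e-16).

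Another adipocyte gene moved with Fabp4. Adipoq, which encodes the adipocyte hormone adiponectin, stood at 17.7 to 23.1 FPKM in control TAMs and at 0 to 0.0928 and 0 to 0.0714 FPKM in miR-144 and miR-451a TAMs. The 5 adipocyte markers summed to 17.7 to 23.1 FPKM in control and to at most 0.0928 and 0.0809 FPKM in the microRNA groups, Adipoq made up nearly all of the control sum, and it was called lower in both comparisons by limma. The adipocyte droplet genes Plin1 and Cidec were at most 0.0138 and 0.0116 FPKM in any sample, and Lep was listed at 0 in all. The endothelial genes Cdh5 and Pecam1 were at 0.0348 to 0.1002 and 0.122 to 0.232 FPKM in control TAMs, while the endothelial gene Kdr was at 2.504 to 3.09 FPKM there and 3.34 to 4.301 and 3.16 to 5.12 FPKM in the microRNA groups. Adipocytes and endothelial cells lack F4/80, and the part of such cells in the Fabp4 level was not tested.

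Fabp5 (chr3:10012548-10016607, plus strand), the epidermal type carrier and neighbor of Fabp4 on the same chromosome, was the more abundant of the pair. Its values in control were 489.9, 522, 509, 519 and 503 FPKM. The miR-144 samples held 241, 244, 235, 257 and 239 FPKM and the miR-451a samples 203, 219, 221, 229.8 and 226 FPKM. As for Fabp4, no group overlapped with another. Means of 508 ± 13.01, 243 ± 8.26 and 219.8 ± 10.3 FPKM gave log2 differences of -1.06 (-1.14 to -0.99, limma adjusted p = 1.28e-12) and -1.21 (-1.28 to -1.13, limma adjusted p = 2.94e-13). The ratio of Fabp4 to Fabp5 FPKM was 0.234 ± 0.0106 in control and 0.0917 ± 0.00452 and 0.0903 ± 0.00426 in the microRNA groups, again chosen after the values were seen. Up to 21.1% of the 50-base stretches of a Fabp5 transcript also occur in other genes, so its level is less certain. The processed copy Gm6166, the main such gene, had 95.1 ± 13.9, 40.3 ± 5.75 and 35.3 ± 4.97 FPKM.

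The other fatty acid binding proteins were listed at low levels or at 0. Of 7 further family genes, 5 were listed at 0 in all 15 samples. Only Fabp3, the heart type, passed the filter, with a mean of 4.83 FPKM over the 15 samples. Fabp3 fell in miR-451a TAMs (log2 -0.37, limma adjusted p = 0.0119) and was at -0.26 in miR-144 TAMs (limma adjusted p = 0.0578), where it passed with median centring (-0.40, limma adjusted p = 0.00752) and with quantile normalization (-0.41, limma adjusted p = 0.00743).

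Lgals3 (chr14:47367751-47386160, plus strand) encodes galectin-3, a galactoside-binding lectin secreted by activated macrophages. Control samples held 2382, 2350.3, 2410.4, 2488 and 2372 FPKM. Samples of the miR-144 group had 1078, 1007, 954, 993 and 1105 FPKM, and samples of the miR-451a group had 919.6, 866, 945, 926 and 964 FPKM. Every control sample lay above every sample of the microRNA groups, and those 2 groups overlapped with each other. Means were 2400.3 ± 53.4, 1027 ± 62.1 and 924 ± 37.002 FPKM, 2.34-fold and 2.598-fold higher in control. The log2 differences were -1.23 (-1.32 to -1.13, limma adjusted p = 1.63e-12) and -1.38 (-1.47 to -1.29, limma adjusted p = 3.97e-13).

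Values of other galectins and ligands are given gene by gene. Of 9 listed genes 8 were in the table and 4 passed the filter, with 2 higher and 1 lower in each comparison. These shares are near those of all tested genes, 47.1% and 48.1% higher and 20.1% and 20.3% lower, so the counts are no result about the family. Lgals1 (galectin-1) fell from 991 ± 30.99 FPKM to 494 ± 21.2 and 487 ± 44.1 FPKM. Lgals9 (galectin-9) rose from 36.97 ± 2.94 to 69.05 ± 3.98 and 68.4 ± 3.15 FPKM, and Lgals8 rose from 23.7 ± 0.8505 to 29.9 ± 2.13 and 30.5 ± 3.17 FPKM (limma adjusted p = 3.63e-04 and 1.96e-04).

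Plin2 (chr4:86648386-86670060, minus strand) encodes perilipin-2, which coats lipid droplets in macrophages and hepatocytes. Control values were 326, 309, 335, 323 and 318 FPKM. With miR-144 the values were 144, 144, 155, 152 and 162 FPKM, and with miR-451a they were 139, 144, 143, 144 and 148 FPKM. The control range did not overlap with the others. Up to 11.1% of the 50-base stretches of a Plin2 transcript also occur in Gm12551, which was at most 0.184 FPKM in any sample. Means fell from 322 ± 9.34 to 151 ± 7.64 and 143 ± 2.93 FPKM, at log2 differences of -1.09 (-1.16 to -1.01, limma adjusted p = 7.03e-13) and -1.16 (-1.24 to -1.09, limma adjusted p = 3.03e-13).

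Other genes of the lipid droplet were mostly lower in the microRNA groups too. Of 26 genes of droplet coat, lipid synthesis and lipolysis 17 passed the filter, and 2 rose and 12 fell in miR-144 TAMs (median -0.23). In miR-451a TAMs 2 rose and 13 fell (median -0.26), against 20.1% and 20.3% lower and 47.1% and 48.1% higher among all tested genes, whose medians were 0.13 and 0.14. Plin3, the other perilipin at a sizeable level, fell from 51.2 ± 1.197 FPKM to 29.1 ± 1.74 and 29.3 ± 1.58 FPKM. Soat1, which makes cholesterol esters, fell from 73.8 ± 2.08 to 41.96 ± 1.802 and 41.9 ± 0.767 FPKM, and the acyl-CoA synthetase Acsl3 fell from 11.1 ± 0.307 to 5.62 ± 0.481 and 5.899 ± 0.246 FPKM. The phosphatidate phosphatases moved apart, as Lpin1 fell from 8.97 ± 0.179 to 4.61 ± 0.811 and 4.62 ± 0.434 FPKM and Lpin2 rose from 3.29 ± 0.262 to 8.903 ± 0.574 and 8.44 ± 0.6495 FPKM. The triglyceride lipase Pnpla2 was 43.5 ± 2.87, 37.2 ± 4.202 and 34.5 ± 2.17 FPKM and fell in both (limma adjusted p = 0.00986 and 6.95e-04, the first of which became 0.0609 after rescaling to TPM). Rescaling to TPM also ended the lower calls of Acsl4 and Bscl2 in both comparisons and of Gpat4 in miR-144 TAMs. Median centring added a lower call of Fitm2 in miR-144 TAMs.

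The wider lipid-associated macrophage program contained genes of both directions. Of 28 further genes of this program 26 passed the filter, and 5 rose and 18 fell in miR-144 TAMs (median -0.76), while 6 rose and 19 fell in miR-451a TAMs (median -0.78), again against 20.1% and 20.3% lower among all tested genes. Itgax (CD11c) fell from 93.1 ± 9.62 FPKM to 3.63 ± 0.692 and 3.43 ± 0.422 FPKM (limma adjusted p = 1.80e-14 and 1.53e-14). The proton pump subunit Atp6v0d2 fell from 485 ± 27.7 to 42.7 ± 5.73 and 35.2 ± 4.04 FPKM, and the lysosomal protease Ctsl from 437 ± 28.4 to 68.4 ± 4.38 and 65.8 ± 3.15 FPKM. The fatty acid receptor Cd36 fell from 200.3 ± 11.9 to 45.4 ± 5.17 and 41.8 ± 2.19 FPKM.

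The apolipoprotein genes Apoe and Apoc2 went the other way, and Apoc1 and Apoc4 were below the filter on low values. Apoe, which encodes a lipid carrier and TREM2 ligand, rose from 1603 ± 279 FPKM to 4536 ± 596 and 3622 ± 693 FPKM (limma adjusted p = 2.92e-07 and 4.33e-06). Apoc2, the cofactor of lipoprotein lipase, rose from 17.99 ± 2.84 to 159.8 ± 15.6 and 159.8 ± 4.49 FPKM. Lpl itself went from 92.6 ± 4.097 to 112 ± 6.56 and 101 ± 4.29 FPKM, called in both, and its difference in miR-451a TAMs turned from 0.13 to -0.015 with median centring. The hepatocyte apolipoproteins Apoa1 and Apoc3 were listed at 0 in all samples.

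Transcription factors linked to the 9 genes were more often lower than higher. Of 17 such factors 16 passed the filter, with 3 higher and 9 lower in miR-144 and 4 higher and 9 lower in miR-451a TAMs (medians -0.33 and -0.35), where 20.1% and 20.3% of all tested genes were lower and 47.1% and 48.1% higher. Pparg, a fatty acid receptor in the nucleus that controls Fabp4 and Plin2, fell from 37.4 ± 3.36 FPKM to 9.55 ± 0.6004 and 9.604 ± 0.531 FPKM (limma adjusted p = 6.65e-13 and 6.19e-13). Nr1h3 (the oxysterol receptor LXR alpha) fell from 18.4 ± 2.09 to 8.45 ± 0.454 and 7.46 ± 0.547 FPKM. Mitf and Tfeb, which control Gpnmb and lysosomal genes, fell from 18.9 ± 0.415 and 13.5 ± 0.997 FPKM to 11.1 ± 0.462 and 8.35 ± 0.521 FPKM in miR-144 TAMs and 10.8 ± 0.284 and 8.43 ± 0.603 FPKM in miR-451a TAMs. Bhlhe40 fell from 62.5 ± 3.399 to 4.13 ± 0.288 and 3.94 ± 0.182 FPKM and Cebpb from 61.5 ± 7.23 to 28.3 ± 4.07 and 27.04 ± 4.26 FPKM.

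**Figure D2:**
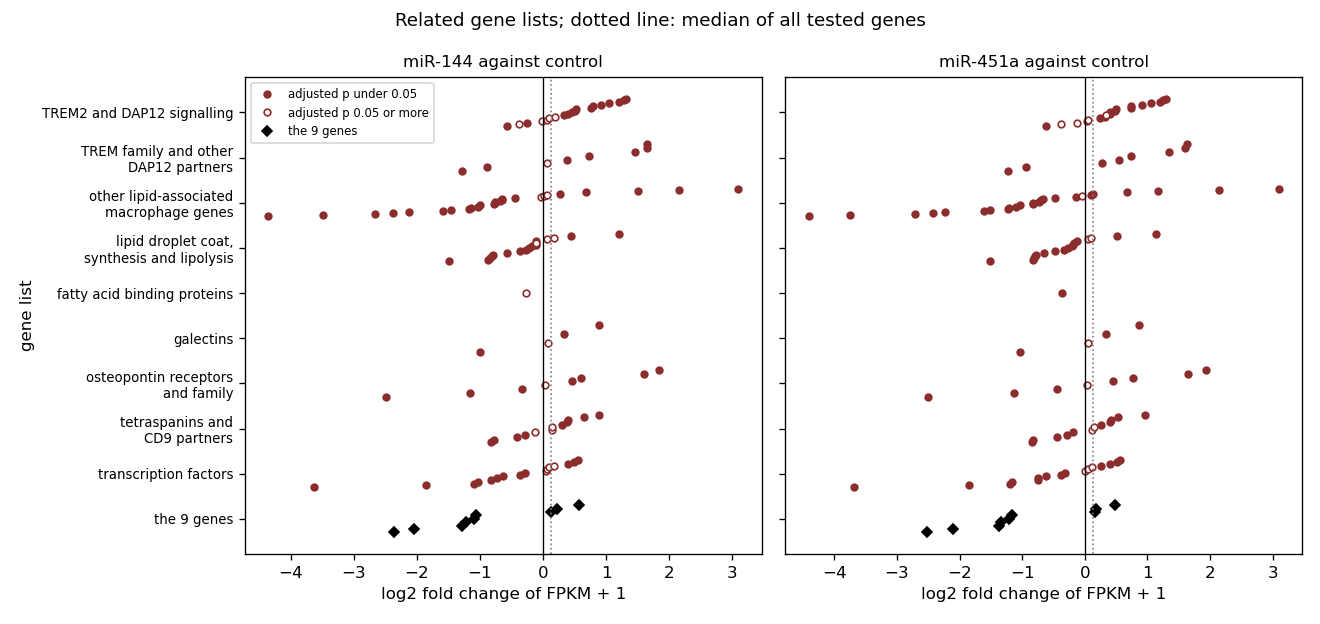
Log2 fold change of FPKM + 1 on the horizontal axis for the tested genes of each related list, 1 row a list, in miR-144 and in miR-451a TAMs against control. Filled points passed an adjusted p of 0.05 by limma, open points did not, diamonds are the 9 genes, and the dotted line is the median of all tested genes at 0.13 and 0.14. Most TREM2 and DAP12 signaling genes lie to the right of that line, and most lipid droplet and other lipid-associated macrophage genes to its left.

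TAMs of miR-451a and miR-144 tumors were then compared directly. None of the 9 genes and none of the 11419 tested genes (0%) passed an adjusted p of 0.05 by limma. At an unadjusted p under 0.05 there were 596 of the 11419 tested genes, near the share that chance alone gives at that threshold. Of the 9 genes, 4 were among them. The log2 difference of miR-451a from miR-144 TAMs was -0.14 for Fabp5 (-0.22 to -0.068, limma adjusted p = 0.736) and -0.16 for Fabp4 (-0.25 to -0.065, limma adjusted p = 0.775). These were the 2 genes of the 9 whose miR-451a and miR-144 samples did not overlap, against 0.849% of all tested genes, and each had a two-sided exact permutation p of 0.00794, the smallest that 5 samples against 5 can give. It was -0.15 for Lgals3 (-0.24 to -0.062, limma adjusted p = 0.775, exact permutation p = 0.0159) and -0.076 for Plin2 (-0.15 to -0.0020, limma adjusted p = 0.946, exact permutation p = 0.0476).

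For the other 5 genes the interval of the miR-451a minus miR-144 difference included 0. It ran from -0.045 to 0.13 for Trem2, -0.15 to 0.071 for Tyrobp, -0.15 to 0.042 for Gpnmb, -0.26 to 0.12 for Cd9 and -0.52 to 0.33 for Spp1. All 6 genes that were lower in the microRNA groups had their lowest mean in miR-451a TAMs, then miR-144, then control, and for none of the 6 did the difference between miR-451a and miR-144 pass the adjusted test. Trem2 had its highest mean in miR-451a TAMs, and Tyrobp and Spp1 had theirs in miR-144 TAMs.

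**Figure D3:**
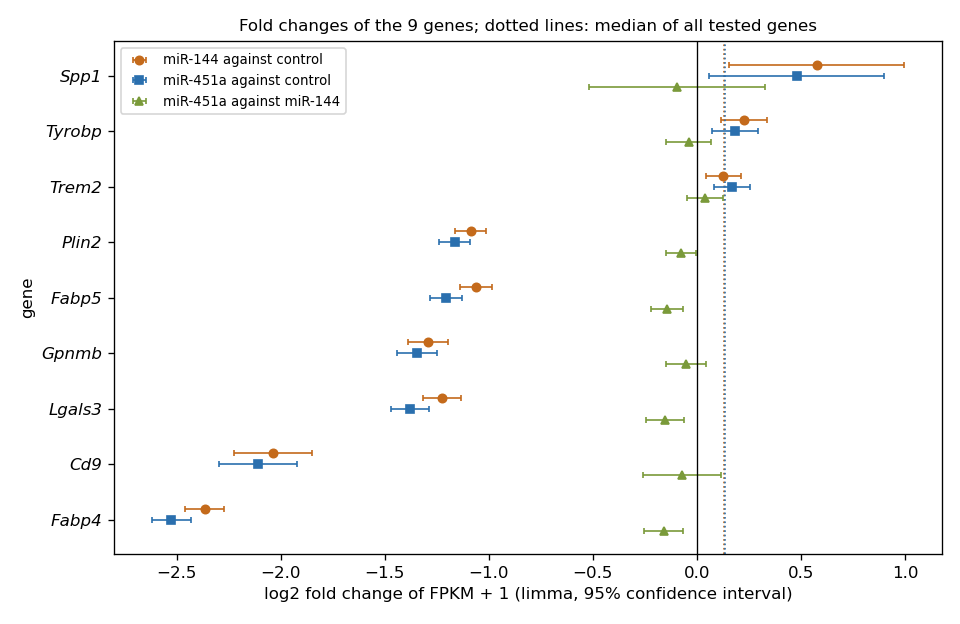
Log2 fold change of FPKM + 1 on the horizontal axis for the 9 genes, with 95% confidence intervals from limma, for miR-144 against control, miR-451a against control and miR-451a against miR-144. The dotted lines are the median of all tested genes in the comparisons with control, 0.13 and 0.14. The intervals of 6 genes reach no higher than -0.99 in both comparisons with control, and Spp1 has the widest intervals.

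The spread within groups differed between genes. The coefficients of variation of the 7 genes other than Spp1 and Cd9 lay between 2.04% and 6.61% over the groups, against 15.2% to 26.2% for Spp1. Spp1 in samples 3 and 4 was 16.05% and 17.2% below the mean of the control group, 27.1% and 24.5% below that of the miR-144 group and 28.3% and 28.1% below that of the miR-451a group. Cd9 in samples 3 and 4 was 11.2% and 17.6% below the miR-144 mean and 11.6% and 11.5% below the miR-451a mean, but 1.98% above the control mean in sample 3. The labels give no date or batch for the sample numbers.

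**Figure D4:**
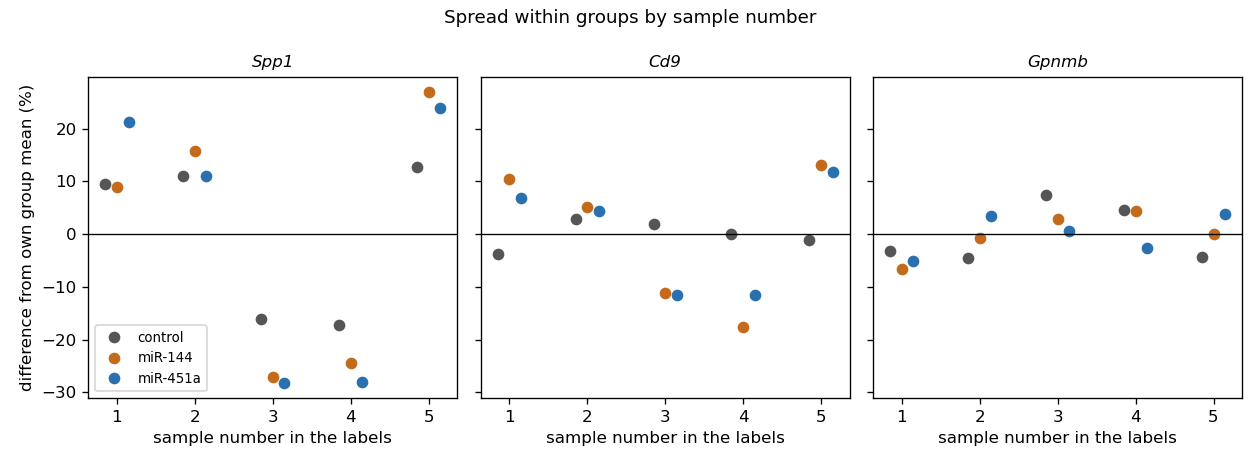
Difference of each sample from the mean of its own group, in percent on the vertical axis, for Spp1, Cd9 and Gpnmb, by the sample number in the labels on the horizontal axis. Colors mark the 3 groups. Spp1 lies 16.05% to 28.3% below the group mean in samples 3 and 4 of all groups, Cd9 does so by 11.2% to 17.6% in the microRNA groups only, and Gpnmb stays within 7.403% of the mean in every sample.

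Finally, for each of the 9 genes the tested genes with the most similar pattern were sought, by the mean absolute difference of log2 values centred on each gene over the 15 samples. The nearest to Fabp4 was Anxa1, at a difference of 0.0471 and means of 588, 110.1 and 104 FPKM in control, miR-144 and miR-451a TAMs. The nearest to Plin2 was the proton pump subunit Atp6v1b2, at 0.0336 and 174, 80.4 and 76.2 FPKM. Fabp5 was nearest to Cstb, which encodes cystatin B and belongs to the wider program above, at 0.0485, and Cd9 was nearest to the zinc transporter Slc30a4, at 0.0868, and then to the desaturase Scd1, at 0.0989. Gpnmb was nearest to Arhgap6 at 0.0546 and then Pld3 at 0.0571, and Lgals3 to Daglb at 0.0513. Among the genes with higher values, Trem2 was nearest to Pink1 at 0.0314, Tyrobp to the ribosomal protein gene Rps23 at 0.0339 and Spp1 to Cd72 at 0.0771. These likenesses are descriptions over 15 samples of 3 groups and carry no test.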

How the data were processed

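RNA-seq of sorted TAMs was analysed in 15 samples, grouped by the sample labels into 3 groups of 5. The authors deposited 1 table of FPKM for 55335 genes, in which fragments are scaled to transcript length and to library size. FastQC 0.11.2, STAR and StringTie are named in the submitters' processing notes, and the genome build is not given in the sources used here. Depth was estimated from steps between low values. Only 34.8% to 47.3% of them lay on a step (10% by chance), so counts could not be recovered and a count test was not run.

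A single limma fit (version 3.58.1, R 4.3.3) of the 3 groups was made to log2(FPKM + 1), with the variance trended on abundance, and p-values were adjusted by Benjamini-Hochberg over the 11419 genes whose mean reached 1 FPKM. All 9 genes passed that filter. Log2 fold changes refer to FPKM + 1 and understate changes of low genes, and folds without a log are ratios of mean FPKM. Two-sided exact permutation tests used scipy 1.17.1. On simulated data for miR-144 against control over 11419 genes, 96% of 50 genes changed by 1 (log2), 90% of 50 changed by 0.5 and 56% of 50 changed by 0.25 were called, with 9 false calls among the rest.

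The 9 genes and the related lists were chosen with earlier results of these data known. Genes named in a list were up to 4 with the largest mean absolute log2 change over both comparisons with control. They were taken only from genes called in both whose groups did not overlap in either. A few members were named whatever their values, and a few others were named after their values were seen. Coordinates are from GENCODE M21, in which 99.67% of identifiers occurred. Alternatives were another pseudocount, other filters, median centring, quantile normalization, rescaling to TPM, limma without trend, fits over 2 groups, a replicate block, exact tests and leaving out each sample.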

Additional observations from a re-analysis of the deposited data

Results flagged for a closer look

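A sample that stood apart from the other 4 of its group was found in 12 of 217 groups of 5 values, where chance alone gives about 10.85, and in 0 of the 27 groups of the 9 genes. In the miR-144 group these were Adam10 in sample 5 at 20.3 FPKM, Daglb in sample 3 at 12.7 FPKM and Trem3 in sample 3 at 0.134 FPKM. In the control group they were Adam17 in sample 4 at 35.5 FPKM, Cd36 in sample 4 at 221 FPKM, Cd44 in sample 2 at 48.2 FPKM, Sirpb1a in sample 4 at 0.403 FPKM, Cidec in sample 5 at 0.0116 FPKM and Trem1 in sample 5 at 0.0140 FPKM. In the miR-451a group they were Cd36 in sample 5 at 38.0 FPKM, Itgav in sample 2 at 16.5 FPKM and Trem1 in sample 1 at 0.0643 FPKM. Cidec, Trem1 and Trem3 were listed at 0 in the sample nearest to the one named.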

How the results depend on the processing

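Over 25 alternatives the fall of Gpnmb, Cd9, Fabp4, Fabp5, Lgals3 and Plin2 kept its direction and its call in 25 of 25 in both comparisons with control. Median centring took the genes called higher from 3 to 0 in both, and the difference of Trem2 between miR-144 and control turned to -0.0060. Without trend, with the other pseudocount, after rescaling to TPM, in fits over 2 groups and with the replicate block, 3 genes stayed called higher and 6 lower in each, while quantile normalization and the fit without a filter ended the miR-451a call of Spp1 (adjusted p = 0.0624 and 0.0926). Spp1 kept its call in 23 of 25 for miR-144 and 16 of 25 for miR-451a. Its difference between miR-451a and miR-144 ranged from -0.20 to 0.014 over fits that left out 1 sample, and was above 0 without miR-451a sample 3 or 4. The causes were not tested. The labels do not say that a sample number marks a shared mouse or day, and the deviations of same-numbered samples correlated at r over 0.1 in 8 of 15 pairs and not in all, so pairing was not established and the replicate block is given only here. The mean r was 0.076 for the same number and -0.019 for other numbers. The own number correlated best in 12 of 30 choices, each among the 5 samples of another group. This is a hint of partial pairing from the data and not from the design. With the block, Spp1 had adjusted p-values of 7.98e-06 and 3.23e-05 against control. Without counts, the precision set by depth could not be computed.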
